A study of Mus musculus with 69 samples.

Results

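The 50 genes described here encode the enzymes and regulators that copy DNA in S phase. They are a list of genes by name, chosen with earlier results of these data known. All 50 were rows of each count table, out of 24309 gene symbols shared by the tables. Their mRNA was measured by poly(A) RNA-seq in T cells sorted from pooled lymph nodes and spleens of mice aged 8 to 16 weeks with germline deletions of the Stat5a and Stat5b alleles. Wild type (WT) mice were Stat5a+/+ Stat5b+/+ with 4 alleles. AAB mice (Stat5a-/- Stat5b+/-) had 1 Stat5b allele left and BBA mice (Stat5a+/- Stat5b-/-) had 1 Stat5a allele left, so that both strains lacked 3 alleles in every cell of the body and not in T cells alone. CD8+ cells were naive (Tnv, CD44 low CD62L high), central memory (Tcm, CD44 high CD62L high, "memory" in the labels) or effector memory (Tem, CD44 high CD62L low, "effector" in the labels). They were sequenced without cytokine or after 12 to 16 h with IL-15, or with IL-7 for Tnv and Tcm only, in 48 libraries, 2 for each genotype and condition. A further 15 libraries held naive CD4+ cells of the 3 genotypes without cytokine or with IL-7. The last 4 are labelled as AAB CD8+ cells, activated through the T cell receptor and CD28, that carried a retrovirus with constitutively active STAT5A (S5a) or an empty vector (Ctl). By the study's methods, transduced cells were then cultured with IL-2. Another 2 CD4+ libraries have labels that contradict each other and enter no comparison.

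STAT5A and STAT5B are transcription factors that IL-7 and IL-15 switch on through receptors sharing the common gamma chain, and IL-15 is the cytokine known for keeping memory CD8+ T cells in slow division. A cell prepares to copy its DNA by loading the MCM helicase onto replication origins, a step called licensing. In S phase the helicase is switched on, polymerases copy both strands behind it with the sliding clamp PCNA, and new DNA is packed into chromatin. Most of these genes are textbook targets of the E2F transcription factors, which the retinoblastoma protein holds back until cyclin-dependent kinases act on it in G1.

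Total counts on genes ranged from 5926139 to 25612758 in the CD8+ libraries, from 6705004 to 34118295 in the CD4+ libraries and from 11020965 to 16516525 in the retrovirus libraries. Levels are given as CPM, the counts of a gene relative to the total on all genes, scaled between libraries by the trimmed mean of M values (TMM). In Tcm with IL-15, Stat5a was at 81.1 and 89.7 CPM in the WT libraries, at 2.62 and 2.59 in AAB and at 42 and 44 in BBA, and Stat5b was at 173 and 208 CPM in WT, 96.2 and 93.1 in AAB and 65.5 and 74.3 in BBA. The 48 sorted CD8+ libraries carried Cd8a at 693 to 2016 CPM and Cd3e at 331 to 574 CPM. The 4 libraries labelled as retrovirus CD8+ cells went against their label: Cd8a was at 1.40 to 3.17 CPM and Cd3e at 2.79 to 14.8, whereas Ncr1, an NK cell receptor, was at 1124 to 1453 CPM against 5.01 or less in the 48, and Tyrobp, an NK and myeloid adaptor, at 597 to 678. Replicate 2 of WT Tnv with IL-15 stood apart, with Cd4 at 235 CPM against 6.48 in replicate 1, and Foxp3, the lineage factor of regulatory T cells, at 180 against 18.9. Without this library, the calls between WT and AAB in Tnv, for the cytokine interaction in Tnv and for the state interaction of WT and AAB stayed at 0, and the other counts of calls that use it are given both ways. The WT CD8+ libraries carry library numbers 18 to 33, and the AAB and BBA libraries carry 34 to 65. No label calls these batches, and a difference between WT and either strain cannot be told apart from one between the number ranges, while AAB and BBA share a range.

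The mean level of the 50 genes was highest in WT Tcm with IL-15. As a mean over genes of log2 CPM, the WT libraries stood at 5.48 and 5.31, the AAB libraries at 4.62 and 5.07 and the BBA libraries at 4.10 and 4.09. The group means ± SD (n = 2) were 5.4 ± 0.12 in WT, 4.84 ± 0.32 in AAB and 4.10 ± 0.0098 in BBA. The genotypes did not overlap, and the 2 AAB libraries lay furthest apart. In Tnv with the same cytokine the values were 3.77 and 4.01 in WT, 3.84 and 4 in AAB and 4.17 and 3.99 in BBA, so that the genotypes overlapped. Without cytokine, Tcm libraries of all genotypes lay between 4.16 and 4.47. The WT minus BBA difference of the mean level was thus 1.30 log2 units in Tcm and -0.19 in Tnv under IL-15 (-0.31 without the library that stood apart). With TMM over all genes and no filter these were 1.54 and 0.065, so that the sign in Tnv rests on the scaling. In bulk RNA, a smaller share of cells in S phase and less of these transcripts per cell cannot be told apart.

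**Figure D1:**
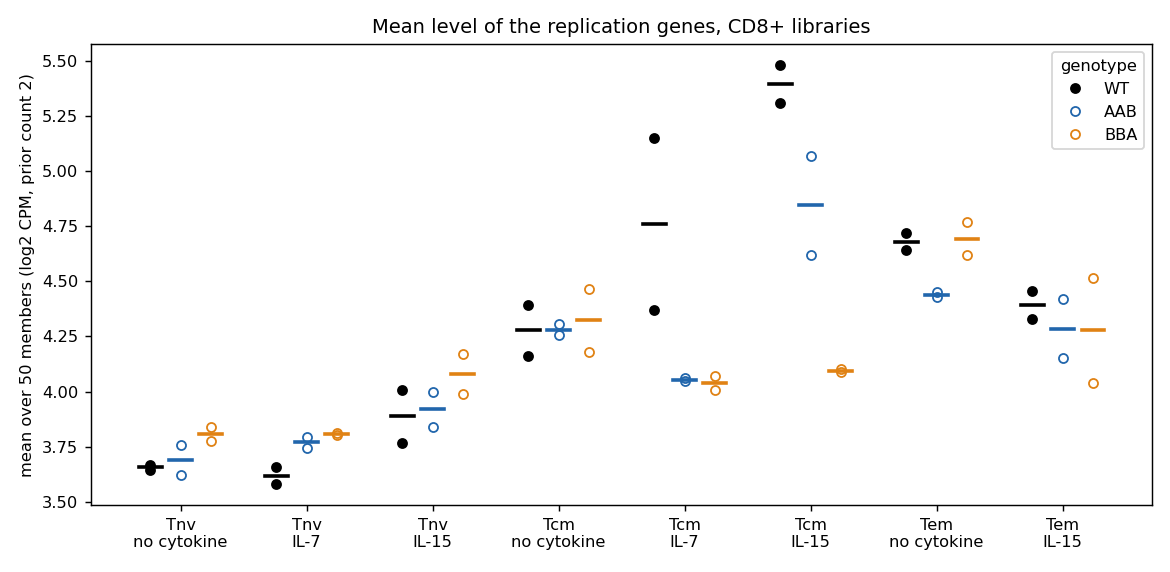
Mean over the 50 replication genes of log2 CPM (vertical axis, prior count 2) in each of the 48 CD8+ libraries, by cell state and culture (horizontal axis) and genotype (WT filled black, AAB open blue, BBA open orange), with a line at the mean of the 2 libraries. WT Tcm with IL-15 lies at 5.31 and 5.48 and BBA Tcm with IL-15 at 4.09 and 4.10, while Tnv libraries with IL-15 lie between 3.77 and 4.17 in all genotypes.

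The first question was which of these genes differ between WT and BBA central memory cells given IL-15. In Tcm with IL-15, 37 of the 50 members were higher in WT than in BBA and none was lower, with a median log2 fold change of 1.28 and a range from -0.60 to 3.26. A gene was called when its fold difference exceeded 1.5 and its p in edgeR's quasi-likelihood test, adjusted over all genes tested by Benjamini-Hochberg, was under 0.05. The test was fitted to the 3 genotypes of a condition. By this rule, 12.3% of the 9856 genes tested were called higher in WT, and the median over all of them was -0.0031. In CPM, 45 of the 50 members had both WT libraries above both BBA libraries, which held for 38% of genes tested, and 2 had both WT libraries below both BBA libraries, which held for 33.2%. The order WT over AAB over BBA of the group means held for 45 of the 50 members and for 36% of genes tested. Genes with low counts were left out of each fit, and 12 members passed this filter in WT but not in BBA libraries, so that a difference was built into their passing. Of the other 38 members, 26 were called higher. With no filter, 42 of the 50 were called.

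All 10 licensing factors were higher in WT, with a median log2 fold change of 1.72. Mcm5, a subunit of the ring-shaped MCM2-7 helicase, was at 225 and 193 CPM in the WT libraries, at 87.8 and 154 in AAB and at 51.8 and 51.7 in BBA. Both AAB libraries lay between the WT and the BBA libraries (log2 fold change WT minus BBA 1.99 ± 0.24 (SE), adjusted p = 0.00121 in edgeR's quasi-likelihood test). Mcm2 was at 280 and 253 CPM in WT, 142 and 199 in AAB and 74.2 and 76.5 in BBA (1.79 ± 0.16). Cdc6, which loads the helicase onto the origin, was at 19 and 16.2 CPM in WT, 7.74 and 12.5 in AAB and 2.47 and 2.89 in BBA (2.68 ± 0.29). Cdc6 passed the low count filter in WT but not in BBA libraries, so that a difference was built into its passing. Cdt1, the partner of Cdc6 in loading, showed the smallest difference of the group, at 0.93 ± 0.17.

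Of the 6 genes for helicase activation, 4 were higher in WT. Among these 4, Cdc45, Gins1 and Gins2 passed the low count filter in WT but not in BBA libraries, so that a difference was built into their passing. Cdc45, which joins MCM2-7 and the GINS complex into the active helicase, was at 16.2 and 12.5 CPM in WT, 6.78 and 11.8 in AAB and 3.27 and 3.12 in BBA (log2 fold change WT minus BBA 2.14 ± 0.32). Of the 4 GINS subunits, 2 were called. Gins1 (2.09 ± 0.32) and Gins2 (2.09 ± 0.39) were higher in WT, whereas the difference was 0.01 ± 0.19 for Gins3 and 0.23 ± 0.13 for Gins4, neither of which was called. Gins2 was at 16.1 and 11.2 CPM in WT and 3.07 and 3.20 in BBA, and 2758 bases of its exons overlap Gse1 on the other strand, so that its reads cannot be assigned with certainty.

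Among the polymerases and primase, 5 of 6 were higher in WT. Pola1, the catalytic subunit of polymerase alpha, which starts each new strand, was at 35.4 and 28.1 CPM in WT, 18 and 28.2 in AAB and 12.2 and 12.6 in BBA. The difference in Pola1 was 1.33 ± 0.23 on the log2 scale. Pold1, the catalytic subunit of polymerase delta, was at 179 and 199 CPM in WT, 97.4 and 126 in AAB and 75.3 and 96.1 in BBA (1.11 ± 0.16). Pole, the catalytic subunit of the leading strand polymerase epsilon, differed by 1.74 ± 0.23. Pola2, the accessory subunit of polymerase alpha, passed the adjusted p but not the fold limit (0.52 ± 0.10).

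Of 11 genes for the clamp, its loader, single-strand binding and strand joining, 6 were higher in WT. Pcna was at 295 and 242 CPM in WT, 198 and 215 in AAB and 137 and 115 in BBA (1.07 ± 0.13), and the 3 genotypes did not overlap. Fen1, which trims Okazaki fragments, was at 59.7 and 57.4 CPM in WT, 32.4 and 41.8 in AAB and 18.3 and 23.4 in BBA (1.46 ± 0.16), although 2039 bases of its exons overlap Gm10143 and Tmem258 on the other strand. Lig1, which seals the fragments, differed by 1.73 ± 0.30. Among the loader subunits Rfc3, Rfc4 and Rfc5 were called, with Rfc3 at 16.1 and 14.5 CPM in WT and 7.03 and 6.48 in BBA (1.16 ± 0.22). Rfc1 (0.44 ± 0.09) and Rfc2 (0.37 ± 0.12) stayed under the fold limit. No subunit of the single-strand binding complex RPA was called. Rpa1 was at 207 and 197 CPM in WT, 178 and 201 in AAB and 188 and 177 in BBA, a difference of 0.11 ± 0.09.

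Deoxynucleotide supply gave 2 calls of 4. Rrm1 (1.1 ± 0.15) and Rrm2 (0.92 ± 0.25), the subunits of ribonucleotide reductase, were higher in WT, and Rrm2 was at 17.1 and 17.6 CPM in WT, 10.2 and 16.0 in AAB and 10.4 and 7.65 in BBA. Tk1, thymidine kinase, was at 9.19 and 10.8 CPM in WT, 4.67 and 10 in AAB and 7.13 and 4.92 in BBA (0.71 ± 0.38, not called). Tyms, which makes thymidylate, had the lowest fold change of the members, at -0.60 ± 0.27 (not called), with 13.1 and 7.64 CPM in WT, 14.6 and 12.1 in AAB and 15.5 and 15.5 in BBA. The annotation also holds pseudogene copies of Pcna and Tyms, with which reads of these genes could be shared.

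All 4 chromatin genes and all 5 checkpoint and fork control genes were higher in WT. Uhrf1, which reads hemimethylated DNA behind the fork and recruits the maintenance methyltransferase, was at 110 and 112 CPM in WT, 38.6 and 82.0 in AAB and 15.6 and 16.2 in BBA (2.77 ± 0.32). Hells, a chromatin remodeller, was at 49.3 and 38.1 CPM in WT, 21.1 and 30.1 in AAB and 11.2 and 11.4 in BBA (1.93 ± 0.21). Chaf1a, the large subunit of the histone chaperone CAF-1, was at 39.8 and 34.3 CPM in WT and 5.94 and 9.83 in BBA (2.19 ± 0.34), with 4648 bases of its exons overlapping Ubxn6 on the other strand. In each of these genes the AAB libraries lay between those of WT and BBA. Chek1, the kinase that slows the cycle when forks stall, had the largest difference of all members, at 20.6 and 14.4 CPM in WT, 6.01 and 11.8 in AAB and 1.78 and 1.79 in BBA (3.26 ± 0.40, adjusted p = 0.00122 in edgeR's quasi-likelihood test). Chek1 and Dtl passed the low count filter in WT but not in BBA libraries. Dtl, which directs the destruction of Cdt1 in S phase, was at 33.4 and 29.1 CPM in WT, 11.1 and 22.2 in AAB and 5.74 and 4.45 in BBA (2.60 ± 0.34), and Clspn, the adaptor that hands Chek1 its signal, differed by 1.55 ± 0.32.

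Of the 4 G1/S regulators, E2f1 alone was called. E2f1 was at 36.9 and 37.3 CPM in WT, 18.5 and 28.8 in AAB and 7.03 and 7.88 in BBA (2.28 ± 0.22). E2f2 ran in the other direction, at 42.3 and 46.3 CPM in WT, 81.1 and 76.9 in AAB and 54 and 53.2 in BBA, which gave -0.30 ± 0.09 for WT minus BBA (not called). The E-type cyclins, which drive the kinase CDK2 at the G1/S border, were not called. Ccne1 was at 28.7 and 26.8 CPM in WT and 22.6 and 24 in BBA (0.22 ± 0.11), and Ccne2 at 8.10 and 7.15 in WT and 7.72 and 6.09 in BBA (0.12 ± 0.23).

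**Figure D2:**
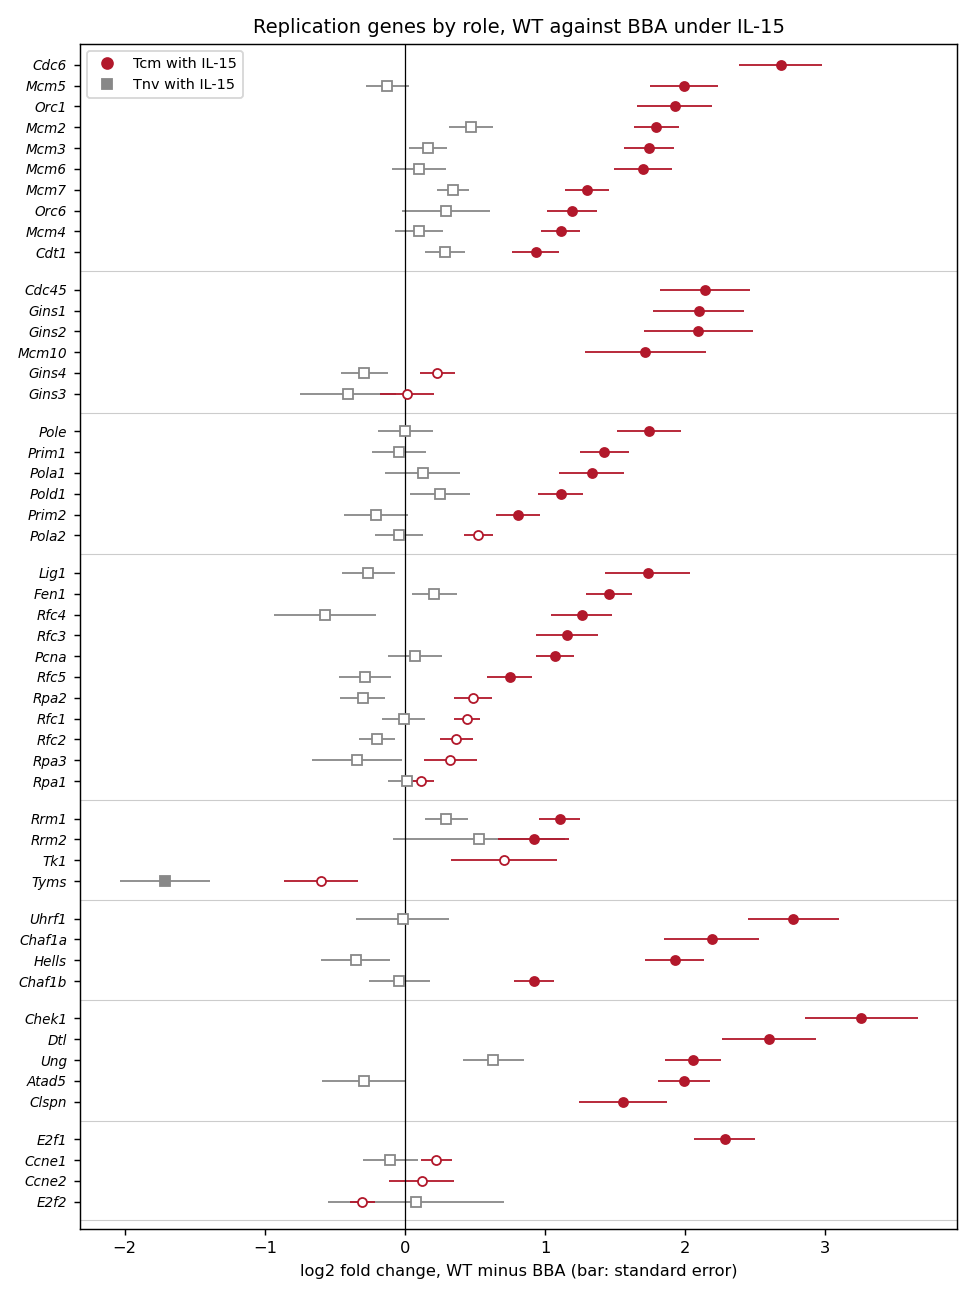
Log2 fold change WT minus BBA (horizontal axis, bars show the standard error) of each member under IL-15 in Tcm (red circles) and Tnv (grey squares), with genes grouped by role and filled symbols for called genes; members that did not pass the low count filter in Tnv have no square. In Tcm 37 symbols are filled, all to the right of 0 and up to 3.26 for Chek1, whereas in Tnv the 1 filled symbol is Tyms at -1.71.

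To see which sequences the members share, the promoters were read for the 8-letter E2F consensus in 4 forms, TTTCCCGC, TTTCGCGC, TTTGCCGC and TTTGGCGC, on both strands, in the 250 bases before the start of each gene (RefSeq, GRCm38.p6). Of the 42 members with a promoter sequence, 11 (26.2%) held at least 1 form, as did 2.16% of all 27025 genes. They were Cdc6, Dtl, Gins3, Hells, Mcm5, Mcm6, Mcm7, Orc1, Pola1, Rfc3 and Uhrf1. Among members with a promoter sequence, 10 of the 32 called higher in WT Tcm with IL-15 and 1 of the 10 not called held a form. The STAT consensus TTCNNNGAA was found before 3 of the 42 members (7.14%), Cdc45, Lig1 and Mcm5, and before 8.13% of all genes. A match is a description of letters and does not show binding. The 30 bases around the E2F letters are printed below for the members with a match whose CPM are given above, read along the gene, with the E2F letters in capitals; where these are GCGGGAAA or GCGCCAAA, the form lies on the opposite strand, and in Mcm5 a form of each kind overlaps.
Cdc6: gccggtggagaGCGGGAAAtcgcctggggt
Mcm5: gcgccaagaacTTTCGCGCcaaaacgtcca
Pola1: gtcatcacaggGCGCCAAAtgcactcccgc
Rfc3: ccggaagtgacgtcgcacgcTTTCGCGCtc
Uhrf1: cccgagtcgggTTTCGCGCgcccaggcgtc
Hells: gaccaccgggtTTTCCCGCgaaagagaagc
Dtl: caatcagaaagcgtgacgtcagTTTGGCGC
These lie at chr11:98908002-98908031 (Cdc6, + strand), chr8:75109345-75109374 (Mcm5, +), chrX:93632275-93632304 (Pola1, -), chr5:151651209-151651238 (Rfc3, -), chr17:56304117-56304146 (Uhrf1, +), chr19:38930917-38930946 (Hells, +) and chr1:191575545-191575574 (Dtl, -).

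AAB cells, whose remaining allele is Stat5b, lay between WT and BBA in Tcm with IL-15. Against BBA, 21 of the 50 members were higher in AAB and none was lower (median log2 fold change 0.73), where 3.12% of genes tested were called higher. Of the 38 members that passed the low count filter in both groups 16 were called, and of the 12 that did not 5 were called. The largest differences were in Chek1 (2.30 ± 0.40), Uhrf1 (1.91 ± 0.32) and Cdc6 (1.90 ± 0.30), and E2f1 differed by 1.65 ± 0.22. Of these, Chek1 and Cdc6 did not pass the low count filter in BBA. The licensing factors Mcm2 (1.16 ± 0.16) and Mcm5 (1.21 ± 0.24) were among the calls, and Gins2 (0.96 ± 0.40) and Pold1 (0.37 ± 0.16) were not. The count rested on single libraries: it was 1 without replicate 2 of BBA, 4 without replicate 1 of BBA and 3 without replicate 2 of AAB, which was the higher of the AAB libraries in the mean level. Of the 21 calls, 17 were also made in each of the 6 other fits with all libraries.

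WT and AAB were then compared. In Tcm with IL-15, 5 members were higher in WT than in AAB, where 2.80% of genes tested were called higher, and 1 was lower (median log2 fold change 0.60). Ung, the uracil glycosylase that removes uracil from new DNA, differed most (1.18 ± 0.19), with 51.4 and 50.9 CPM in WT, 17.6 and 27.1 in AAB and 11.9 and 12.3 in BBA. Atad5, which unloads the clamp (0.85 ± 0.17), Prim1, the catalytic subunit of primase (0.76 ± 0.16), Pold1 (0.74 ± 0.16) and Mcm7 (0.71 ± 0.15) followed. E2f2, an E2F family member, was lower in WT than in AAB (-0.85 ± 0.09), and no library of either genotype overlapped the other. DESeq2 called 17 members in this comparison, and the edgeR count was 1 without replicate 1 of WT, 2 without replicate 2 of WT or replicate 1 of AAB, and 12 without replicate 2 of AAB.

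**Figure D3:**
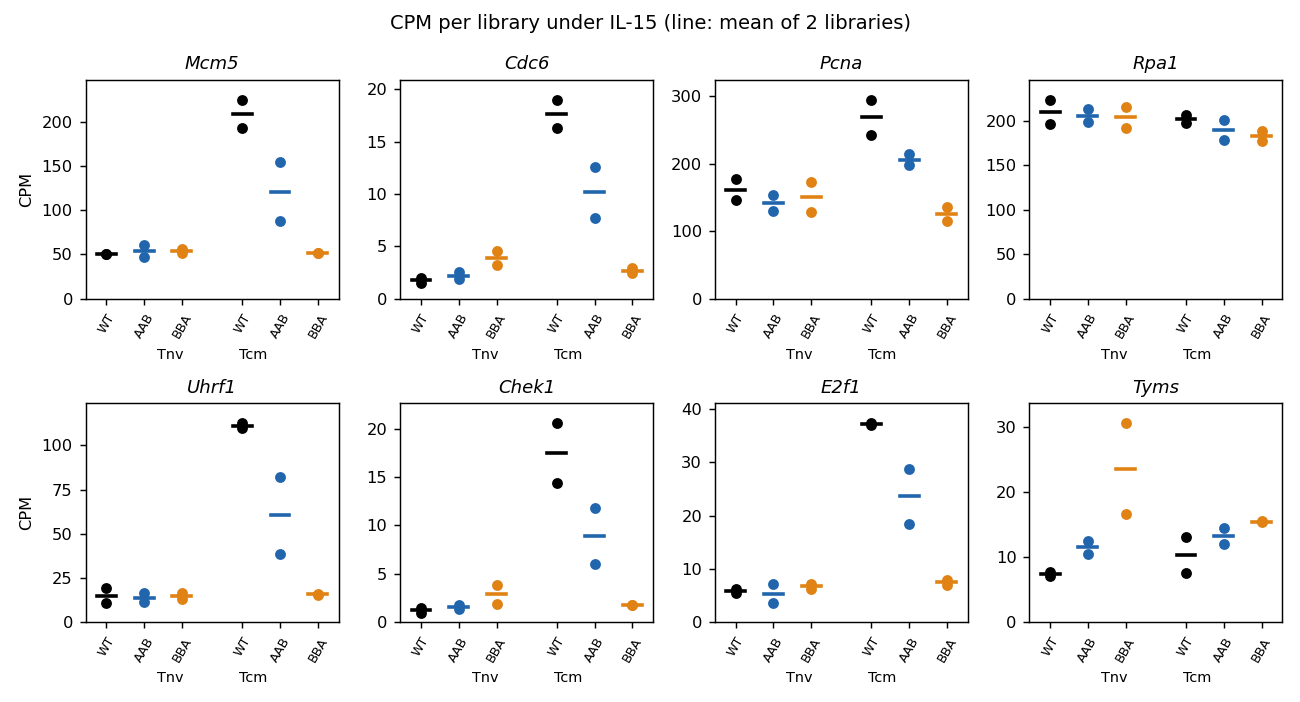
CPM (vertical axes, from 0) of 8 members in each library of Tnv and Tcm with IL-15 by genotype (WT black, AAB blue, BBA orange; the line is the mean of 2 libraries). In Tcm the libraries of Mcm5, Cdc6, Pcna, Uhrf1, Chek1 and E2f1 fall in the order WT, AAB, BBA without overlap, while Rpa1 spans 177 to 207 CPM and Tyms is lowest in WT on average. In Tnv the Tyms values run from 7.07 in WT to 30.6 in BBA.

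The same comparison of genotypes was made in naive cells under IL-15. Of the 36 members that passed the low count filter in Tnv, 1 was called between WT and BBA, where 9.60% of all genes tested were called. This was Tyms, at 7.07 and 7.67 CPM in WT, 10.6 and 12.5 in AAB and 30.6 and 16.7 in BBA, so that it was lower in WT (-1.71 ± 0.32, adjusted p = 0.0177 in edgeR's quasi-likelihood test). The median over the members tested was -0.013. Mcm5 was at 50.5 and 50.7 CPM in WT, 47.1 and 60.2 in AAB and 52.1 and 56.1 in BBA (-0.13 ± 0.15), and Pcna at 178 and 146, 153 and 130, and 172 and 129 (0.07 ± 0.19). Mcm2 (0.47 ± 0.16) and Ung (0.63 ± 0.22) were not called with the filter and were called with no filter, which gave 7 calls, 6 of them besides Tyms (Cdt1, Mcm2, Mcm7, Mcm10, Rrm1 and Ung). Both WT libraries lay above both BBA libraries in 7 of the 36 members (27.6% of genes tested) and below them in 8 (22.8%), and the order WT over AAB over BBA held for 10 (32.8%).

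The 14 members that were not tested in Tnv were low there. Cdc6 was at 1.5 and 2.01 CPM in WT and 4.57 and 3.24 in BBA, Chek1 at 0.998 and 1.52 in WT and 3.88 and 1.92 in BBA, and E2f1 at 5.57 and 6.21 in WT and 6.23 and 7.20 in BBA. E2f2 differed between the WT libraries, at 14.7 and 74.4 CPM, the higher value being in the library with Cd4 and Foxp3 transcripts. Without that library the WT and BBA comparison of Tnv gave 2 calls, and without any other single library 0 to 2. Between WT and AAB no member of 36 was called by edgeR (0.908% of genes tested; 3 at an unadjusted p under 0.05 and 0 by DESeq2), and between AAB and BBA none was called either (0.0699%; 1 at an unadjusted p under 0.05 and 0 by DESeq2).

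The direct comparison of central memory with naive cells under IL-15 used a fit over both states. In WT, 37 of the 50 members were higher in Tcm than in Tnv and none was lower (median log2 fold change 1.38), where 6.52% of all genes tested were called higher. The largest differences were in Dtl (3.84 ± 0.59), Chek1 (3.77 ± 0.46) and Cdc6 (3.32 ± 0.34). Chaf1a (3.31 ± 0.39), Uhrf1 (2.88 ± 0.35) and Mcm10 (2.87 ± 0.49), which helps start the helicase, followed, and Mcm5 differed by 2.05 ± 0.22. Of these, Dtl, Chek1, Cdc6, Chaf1a and Mcm10 were too low to be tested in the fit of Tnv alone. By role, 9 of 10 licensing factors, 4 of 6 helicase activation genes, 5 of 6 polymerase and primase genes, 7 of 11 genes behind the fork, 2 of 4 for deoxynucleotides, all 4 chromatin genes, all 5 checkpoint genes and 1 of 4 G1/S regulators were called. Rpa1 (-0.05 ± 0.11) and E2f2 (-0.01 ± 0.52) had differences near 0. Without the Tnv library with Cd4 transcripts, 38 members were called, and 36 members passed the low count filter in WT Tnv as well as in WT Tcm, of which 25 were called.

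In BBA the same contrast gave no call among the 50 members by edgeR (1.69% of genes tested; 3 at an unadjusted p under 0.05 and 0 by DESeq2), with a median of -0.0015 and 25 members on each side of 0. The mean level differed by 0.015 log2 units between BBA Tcm and BBA Tnv, by 0.93 in AAB and by 1.51 in WT (1.63 without the Tnv library with Cd4 transcripts).

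Whether the genotypes differed in this contrast was tested with an interaction term. For WT against BBA, 6 members had a larger Tcm minus Tnv difference in WT, where 0.194% of the 10321 genes tested were called higher. They were Chek1 (4.45 ± 0.66), Cdc6 (3.85 ± 0.48), Atad5 (2.29 ± 0.31), Hells (2.28 ± 0.28), Mcm5 (2.12 ± 0.31) and Mcm3 (1.58 ± 0.23), with a median over the 50 members of 1.23. Chek1 and Cdc6 did not pass the low count filter in every group of the contrast and entered through groups where they were high, while of the 33 members that passed in all 4 groups 4 were called. DESeq2 called 30 members, and leaving out 1 library in turn gave 0 to 15 calls in edgeR, with 3 without the Tnv library with Cd4 transcripts and 0 without replicate 1 of WT Tcm, replicate 1 of BBA Tnv or either BBA Tcm library. For WT against AAB the interaction called no member (0% of genes tested; 15 members at an unadjusted p under 0.05 and 0 by DESeq2).

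Cells without cytokine served as the baseline of the IL-15 response, although by the study's methods they were taken directly ex vivo, so that culture and cytokine change together. In WT Tcm, 31 of 50 members were higher with IL-15 than without and none was lower (median 1.13; 4.28% of genes tested were called higher). Dtl (3.17 ± 0.48), Mcm10 (2.54 ± 0.46) and Chek1 (2.47 ± 0.35) differed most. Mcm5 went from 72.3 and 69.7 CPM without cytokine to 225 and 193 with it (1.57 ± 0.21) and E2f1 from 5.83 and 8.41 to 36.9 and 37.3 (2.36 ± 0.26). Of the genes behind the fork 3 of 11 were called, and Pcna, already at 221 and 195 CPM without cytokine, was not (0.38 ± 0.12). The low count filter was passed without cytokine by 42 members, of which 23 were called. Dtl, Mcm10 and Chek1 were not among these 42.

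Whether BBA Tcm differed from WT in this response was tested directly. The interaction of cytokine and genotype was called in 26 members, all with a larger difference in WT (median 1.35; 4.79% of genes tested were called higher). Of the 42 members that passed the low count filter in all 4 groups 20 were called, and Dtl, Chek1, Cdc6, Orc1, Cdc45 and Mcm10 were called without passing in all. Dtl (3.46 ± 0.68), Chek1 (3.27 ± 0.53) and Cdc6 (3.10 ± 0.51) led, and Uhrf1 (2.94 ± 0.40) and E2f1 (2.86 ± 0.36) followed. In BBA Mcm5 was at 82.1 and 80.7 CPM without cytokine and at 51.8 and 51.7 with IL-15, and Uhrf1 at 29.4 and 24.7 and then at 15.6 and 16.2, so that in both genes the libraries with IL-15 were the lower ones. The mean level of the members was 0.23 log2 units lower with IL-15 than without in BBA, 0.56 higher in AAB and 1.12 higher in WT. The count was 14 without replicate 1 of WT Tcm with IL-15 and 16 without replicate 2 of BBA Tcm with IL-15.

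**Figure D4:**
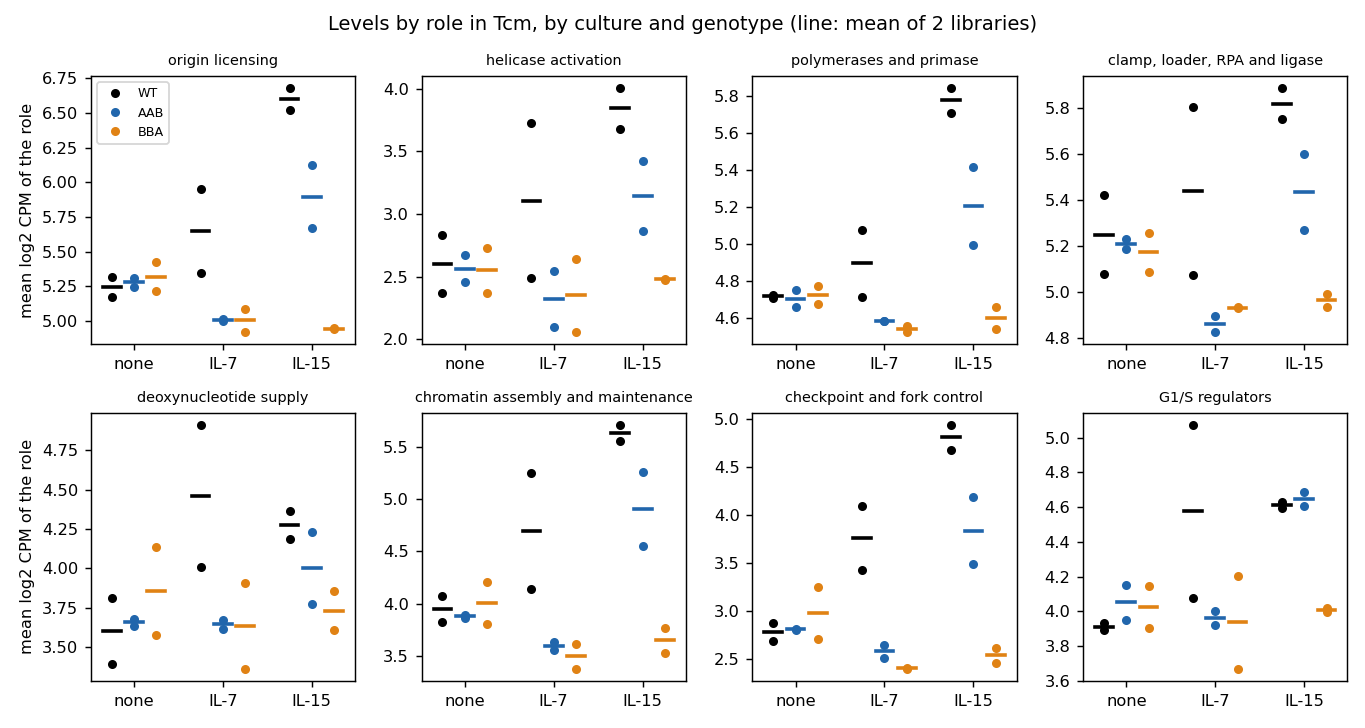
Mean log2 CPM (vertical axes, each panel with its own range that does not start at 0) of the members of each of the 8 roles in Tcm libraries by culture (none, IL-7 or IL-15; WT black, AAB blue, BBA orange; the line is the mean of 2 libraries). With IL-15 the licensing panel shows WT at 6.52 and 6.68, AAB at 5.67 and 6.13 and BBA at 4.94 and 4.95, while without cytokine all libraries lie between 5.17 and 5.42; with IL-7 the 2 WT libraries lie apart in every panel.

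Before culture no member was called between WT and BBA in any CD8+ state. In Tcm without cytokine no member of 46 was called between WT and BBA by edgeR (0.283% of genes tested; 0 at an unadjusted p under 0.05 and 0 by DESeq2), and Cdc6 was at 3.92 and 3.12 CPM in WT, 4.28 and 3.63 in AAB and 6.20 and 3.12 in BBA. In Tem without cytokine none of 46 was called (0.208%; 0 at an unadjusted p under 0.05 and 0 by DESeq2), and in Tnv without cytokine none of 38 (2.75%; 5 and 0). In Tem the mean level was 4.64 and 4.72 in WT without cytokine, above the WT Tcm values of 4.16 and 4.39, and 4.33 and 4.46 with IL-15.

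Effector memory and naive WT cells gave few calls with IL-15 against no cytokine. In WT Tem no member of 45 was called by edgeR (1.73%; 5 at an unadjusted p under 0.05 and 1 by DESeq2), and the median was -0.21. In WT Tnv 1 of 39 was called (6.37%), Pole, which was higher with IL-15 (0.73 ± 0.16). Without the Tnv library with Cd4 transcripts there was no call. The interaction with genotype called none of 39 in Tnv by edgeR (2.42%; 4 at an unadjusted p under 0.05 and 0 by DESeq2). Between genotypes in Tem with IL-15, none of 42 members was called for WT minus BBA (1.81%; 7 at an unadjusted p under 0.05 and 1 by DESeq2; median 0.13) or WT minus AAB (0.0199%; 0 and 0). Of the 15 fits this one varied most between replicates, with a biological coefficient of variation of 28.8% against 11.9% in Tcm with IL-15. In the fits of IL-15 against no cytokine it was 23.5% in Tem and 15.2% in Tcm. A difference of the same size was thus harder to call in Tem. Whether Tcm and Tem differ in these responses was not tested.

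With IL-7 the WT Tcm libraries disagreed. Their mean levels were 5.15 and 4.37, against 4.06 and 4.05 in AAB and 4.01 and 4.07 in BBA. Uhrf1 was at 80.1 and 29.8 CPM in the WT libraries, 12.3 and 11.3 in AAB and 12.6 and 10.4 in BBA, and Mcm5 at 125 and 61, 41.1 and 46.1, and 38.5 and 37, so that both WT libraries lay above the others in each gene. No member of 48 was called by edgeR for WT minus BBA (3.08%; median 0.68; 20 at an unadjusted p under 0.05 and 11 by DESeq2) or WT minus AAB (0.0589%; median 0.60; 14 and 2). Without WT replicate 2, the lower library, the counts were 23 and 20, and without WT replicate 1 they were 3 and 0. The WT libraries differed in other ways too. The 7 myeloid markers summed to 658 and 356 CPM in WT against 67.9 to 244 in the mutants, and the 5 NK cell markers to 678 and 286 against 258 to 336. Ddx3y, a gene of the Y chromosome, was above 10 CPM in 4 of the 6 libraries, both WT libraries included, and in 0 of the 6 libraries with IL-15. The part of these differences in the result was not tested.

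In CD8+ Tnv with IL-7, E2f2 was lower in WT than in BBA, at 6.34 and 10.4 CPM in WT, 32.8 and 26.1 in AAB and 34.5 and 36.2 in BBA (-2.06 ± 0.25), as the 1 call of 40 members (2.69%), and none was called for WT minus AAB by edgeR (0.256%; 3 at an unadjusted p under 0.05 and 1 by DESeq2). In CD4+ Tnv with IL-7, Ccne1 (-1.17 ± 0.19) and Rpa1 (-0.60 ± 0.13) were lower in WT than in BBA, 2 of 36 members (5.51%). Ccne1 was at 10.6, 7.08 and 7.26 CPM in WT, 11.2 and 14.5 in AAB and 16.0, 20.2 and 18.3 in BBA, and WT and BBA did not overlap. For WT minus AAB none of 36 was called by edgeR (0.637%; 3 at an unadjusted p under 0.05 and 0 by DESeq2), and without cytokine none of 40 was called for WT minus BBA (1.13%; 3 and 0).

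In the 4 libraries labelled as AAB CD8+ cells with a retrovirus, which lacked CD8 T cell transcripts and held NK cell transcripts, 1 of 49 members was called between active STAT5A and the empty vector, where 6.63% of genes tested were called. Stat5a was at 59.7 and 60.7 CPM with active STAT5A and at 8.41 and 3.20 with the empty vector. Stat5b was at 148 and 132 CPM with active STAT5A and at 61.8 and 73.4 with the empty vector. E2f2 was at 96.8 and 98.4 CPM with active STAT5A and at 65.9 and 55.1 with the empty vector (0.69 ± 0.13). The 7 myeloid markers summed to 1639 and 1456 CPM with active STAT5A and to 906 and 728 with the empty vector. The higher sum came mostly from Itgam, at 1265 and 1117 CPM against 289 and 312, and Fcer1g was also higher. Lyz2, Csf1r, Cd14, S100a8 and S100a9 were lower in both libraries with active STAT5A, with Lyz2 at 22.4 and 23.5 CPM against 199 and 88.8. The 6 B cell markers summed to 19.7 and 35.2 CPM with active STAT5A and to 210 and 173 with the empty vector. The 4 markers of erythroid or stem cell precursors summed to 78.4 and 95.3 CPM against 315 and 468. The 5 NK cell markers overlapped, at 3035 and 3288 CPM against 3210 and 3041. The part of these genes in the result was not tested. Mcm5 was at 101 and 109 CPM against 97.7 and 108, and Chek1 at 6.55 and 8.10 against 7.64 and 6.08. The mean level was 4.80 and 4.92 against 4.78 and 4.74, and the median fold change 0.088.

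Per length, the members spanned a wide range in WT Tcm with IL-15. As CPM per kilobase of exons (mean ± SD, n = 2), Pcna was highest at 112 ± 15.6, followed by Mcm4 at 62.2 ± 8.69. The other subunits of the MCM2-7 ring held ranks 3 to 6 and, for Mcm2, 9. Mcm10, Tyms, Tk1, Ccne2 and Clspn were the lowest, at 1.69 to 2.19. In BBA Tcm with IL-15, Pcna was at 52.4 ± 6.43 and Mcm4 at 28.3 ± 1.27.

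Another 3 lists place these genes within the cell cycle. Over all genes tested in Tcm with IL-15, 12.3% were higher and 11.1% lower in WT than in BBA. Of 52 other replication genes, 49 were tested in Tcm with IL-15 and 28 were higher and 2 lower in WT than in BBA (median 0.67), among them Dctpp1 (1.60 ± 0.18) and Ticrr, which acts in helicase activation (1.58 ± 0.37). Of 30 mitosis genes, 19 were tested, and 3 were higher (Ncapg, Smc2 and Cdc20, at 0.60 to 0.94) and 4 lower (median 0.17), the latter with Ube2c (-1.66 ± 0.25), which encodes the ubiquitin-conjugating enzyme of the anaphase-promoting complex, and Cenpa (-1.20 ± 0.17), the centromeric histone. Mki67 and Top2a, which mark cycling cells, summed to 105 and 97.1 CPM in WT, 60.6 and 120 in AAB and 37.8 and 67.4 in BBA. Both are on the mitosis list, and neither was called between WT and BBA (Mki67 0.76 ± 0.34, Top2a 1.05 ± 0.36). Cenpf of the same list was among the genes called lower in WT (-0.95 ± 0.30). Of 29 genes for E2F, RB and G1 control, 24 were tested, and 8 were higher and 2 lower (median 0.29). The higher genes were led by Cdk6 (3.48 ± 0.26), a G1 kinase, Myc (2.37 ± 0.15) and Tfdp1 (1.33 ± 0.15), a partner of the E2F proteins. The 2 lower genes were Tfdp2 (-0.76 ± 0.13) and Rb1 (-0.61 ± 0.12). In Tnv with IL-15 the same lists gave 0 higher and 2 lower of 43, 0 higher and 5 lower of 17, and 5 higher and 0 lower of 22, where 2.53% of all genes tested were higher and 7.07% lower.

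In Tcm with IL-15 the 7 erythroid markers summed to 2.57 CPM or less and the 7 myeloid markers to 51.8 CPM or less. The 6 B cell markers summed to 116 to 220 CPM in WT, 91.2 to 243 in AAB and 245 to 501 in BBA. The 4 memory T cell markers (Cd44, Il2rb, Cxcr3 and Ly6c2) summed to 1629 to 1744 CPM in WT, 1544 to 1645 in AAB and 799 to 882 in BBA, and the 4 naive markers to 2569 to 2741, 3047 to 3059 and 3643 to 3904. In Tnv with IL-15 the memory markers summed to 245 to 376 CPM in all genotypes. In Tcm the memory, naive and B cell marker sums of BBA thus lay apart from those of WT, as did the mean level of the replication genes. The memory and B cell marker sums of AAB overlapped those of WT. The part of these markers in the result was not tested.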

How the data were processed

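The authors aligned single-end reads of 50 bases from poly(A) libraries with TopHat2 and counted them per gene with htseq-count; the deposited tables hold these raw counts by gene symbol for CD8+, CD4+ and retrovirus libraries. The labels name mm9 and the methods mm10; annotation and strand setting are not given in the sources used here. Rows naming no gene, between 67.0% and 68.4% of the retrovirus columns, were left out.

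The members and lists were chosen with earlier results of these data known. Counts were tested with edgeR 4.0.16 in R 4.3.3 (TMM, quasi-likelihood test in its older form, 1 fit per condition, 3 genotypes), after a low count filter re-implemented from the methods (Jaccard index between replicates, 100 thresholds from 1 to 200 normalized counts, giving 40.2 to 111 over 15 fits). Calls needed over 1.5-fold and a Benjamini-Hochberg adjusted p under 0.05 over all genes tested. Alternatives were filterByExpr, no filter, DESeq2 1.42.0 and its size factors, a replicate block, 1 fit per lineage and leaving out each library. The fits were tested on simulated counts. Levels are log2 CPM with a prior count of 2. CPM per kilobase used GENCODE exons on GRCm38. Counts of replicate pairs differed by more than counting error allows (chi-square over its degrees of freedom, 5.50 to 93.2), so none was counted as 1 library. The methods call the replicates biological and give 2 or 3 mice per RNA-seq group, but no label ties a library to a mouse or trial. Per-library values were given for members fixed by role, and for the 3 called members with the largest change in each direction. A result that this rule would name among the other replication genes is not reported here.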

Additional observations from a re-analysis of the deposited data

Results flagged for a closer look

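The Tcm minus Tnv difference under IL-15 was larger in WT than in BBA in 6 members by the interaction term: Chek1 (log2 4.45), Cdc6 (3.85), Atad5 (2.29), Hells (2.28), Mcm5 (2.12) and Mcm3 (1.58). The IL-15 minus no cytokine difference in Tcm was larger in WT than in BBA in 26 members by the same kind of test, led by Dtl (log2 3.46), Chek1 (3.27) and Cdc6 (3.10). Chek1 and Cdc6 stand in both lists, and the WT and BBA Tcm libraries with IL-15 are shared by both tests. Groups here hold 2 or 3 libraries, so single libraries were not tested for standing apart from their group. The first test used the WT Tnv library with Cd4 and Foxp3 transcripts, and its calls rested on single libraries, as described above. Chek1 and Cdc6 in the first test, and Dtl, Chek1 and Cdc6 in the second, did not pass the low count filter in every group of the contrast.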

How the results depend on the processing

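No call reversed its direction among the results recomputed, and 1 mean level difference, which had no test, changed sign (WT minus BBA in IL-15 Tnv, under TMM with no filter). Between WT and BBA Tcm with IL-15, 35 of the 37 calls were kept in all 6 other fits and in each of the 6 fits leaving out a library (35 to 37 calls). With no filter on low counts, the number of members called was 3 (WT minus BBA) and 2 (WT minus AAB) in IL-7 Tnv, 7 (WT minus BBA) in IL-15 Tnv, 18 and 8 in IL-7 Tcm, 26 (WT minus AAB) and 36 (AAB minus BBA) in IL-15 Tcm, 22 for the state interaction, 2 for IL-15 in Tnv, and 1 each for CD4+ cells with and without IL-7, for Tcm minus Tnv in BBA and for IL-15 in Tem. With filterByExpr it was 4 in IL-15 Tnv, 2 in IL-7 Tcm, 12 for WT minus AAB in IL-15 Tcm and 11 for the state interaction. With DESeq2 it was 3 and 1 in IL-7 Tnv, 11 and 2 in IL-7 Tcm, 17 for WT minus AAB in IL-15 Tcm, 30 for the state interaction, and 1 each in IL-15 Tem and for IL-15 in Tem. In 1 fit over all libraries of a lineage it was 2 and 1 in IL-7 Tnv, 22 and 11 in IL-7 Tcm, 2 in IL-15 Tem and 19 for the state interaction. Replicate numbers were not taken as pairs: correlations of same-numbered libraries ran from -0.0567 to 0.718 and were all above 0.1 in 9 of 15 fits. With a replicate block it was 3 and 1 in IL-7 Tnv, 22 for WT minus AAB in IL-15 Tcm, 2 in IL-15 Tem, 1 in CD4+ cells with IL-7, 29 for the state interaction and 1 for IL-15 in Tem. TMM over all genes with no filter, added after seeing the data, moved the WT minus BBA difference of the mean level to 1.54 in IL-15 Tcm and to 0.065 in IL-15 Tnv. Leaving out each library gave 1 to 19 calls for AAB minus BBA and 1 to 12 for WT minus AAB in IL-15 Tcm, 0 to 15 for the state interaction, 14 to 27 for the cytokine interaction in Tcm and 0 to 1 in Tnv, 0 to 23 (WT minus BBA) and 0 to 20 (WT minus AAB) in IL-7 Tcm, 0 to 3 and 0 to 1 in IL-7 Tnv, 0 to 2 in IL-15 Tnv, for IL-15 in Tnv and for IL-15 in Tem, 1 to 2 in CD4+ cells with IL-7 and 0 to 1 for active STAT5A. The cause of these changes was not tested. With 2 libraries per group and low counts of many members in Tnv, small differences of low genes were not detectable at this depth.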

Other observations

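The 2 naive CD4+ libraries whose labels contradict each other had mean levels of the 50 genes of 3.55 (AAB) and 3.61 (BBA) log2 CPM, within the range of 3.28 to 3.78 of the 15 other CD4+ libraries.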
